A study of Mus musculus with 6 samples.

Results

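The granule neurons of the cerebellum arise from dividing precursors, and a small set of transcription factors is used in turn as a precursor leaves the cell cycle, migrates and matures. Reported here are 10 such factors, taken by symbol from a count table of the whole cerebellum and given in the order Atoh1, Pax6, Barhl1, Barhl2, Meis1, Nhlh1, Nhlh2, Neurod1, Neurod2 and Etv1, which runs from precursor to maturing neuron. All 10 were in the table, which held 41088 entries after repeats were dropped, and all 10 were among the 15457 genes that passed a filter on low counts.

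The 3 SnoN cKO mice carried a conditional knockout of SnoN, the product of Skil, and the other 3 were wild type. All 6 were C57BL/6 mice aged 6 days, with 1 library of total RNA from the cerebellum of each. The promoter or cell type that drove the deletion is not given in the sources used here. SnoN is a transcriptional regulator that partners Smad proteins and damps the response to transforming growth factor beta, and the study's title concerns its part in the proliferation of granule neuron precursors.

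As background, Sonic hedgehog from Purkinje cells keeps granule precursors dividing in the external granule layer, and Atoh1 holds them in the precursor state. Atoh1, Nhlh1, Nhlh2, Neurod1 and Neurod2 belong to the basic helix-loop-helix (bHLH) family, whose members pair with E proteins and bind the E-box, CANNTG. Pax6, Barhl1, Barhl2 and Meis1 carry homeodomains, and Etv1 is an ETS factor. Atoh1 is known to act on its own gene through an enhancer downstream of it, and Barhl1 is a known target of Atoh1.

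The sequence before and around the start of 3 of these genes is shown because the comparisons below turn on them, Atoh1 and Barhl1 as the factors with the largest difference between genotypes and Neurod1 as the most abundant. Each window runs from 250 bases before to 50 bases after the RefSeq start (GRCm38.p6), 5′ to 3′ along the gene, with every CANNTG in capitals.
Atoh1 chr6:64728875-64729174 (+): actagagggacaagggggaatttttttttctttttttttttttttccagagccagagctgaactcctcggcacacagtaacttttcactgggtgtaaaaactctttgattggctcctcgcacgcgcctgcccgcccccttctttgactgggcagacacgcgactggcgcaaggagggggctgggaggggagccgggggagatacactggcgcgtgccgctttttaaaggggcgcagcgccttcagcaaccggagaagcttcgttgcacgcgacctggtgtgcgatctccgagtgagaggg
Barhl1 chr2:28916619-28916918 (-): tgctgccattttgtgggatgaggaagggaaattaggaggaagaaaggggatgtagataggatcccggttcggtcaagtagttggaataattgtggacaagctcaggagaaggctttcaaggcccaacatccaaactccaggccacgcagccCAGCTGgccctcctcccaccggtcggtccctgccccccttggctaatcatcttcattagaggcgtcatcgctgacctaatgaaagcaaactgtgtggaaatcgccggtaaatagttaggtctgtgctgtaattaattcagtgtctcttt
Neurod1 chr2:79456587-79456886 (-): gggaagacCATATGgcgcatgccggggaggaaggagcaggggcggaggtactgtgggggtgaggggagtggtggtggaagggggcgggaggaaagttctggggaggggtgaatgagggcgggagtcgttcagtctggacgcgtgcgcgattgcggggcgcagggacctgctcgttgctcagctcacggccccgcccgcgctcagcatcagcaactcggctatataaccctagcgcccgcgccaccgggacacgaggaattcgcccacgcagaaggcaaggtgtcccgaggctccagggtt

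RefSeq windows were found for all 10 genes, 13 windows in all because Pax6, Barhl1 and Etv1 had 2 starts. CANNTG, which reads alike on both strands, was in 10 of the 13 windows, against 72.3% of all 32851 windows of the same length. The window of Atoh1 held 0, that of Neurod1 held 1, and that of Nhlh2 held 4. CAGCTG, a special case of CANNTG, was in 3 windows, 2 of Barhl1 and 1 of Nhlh2, against 16.3% of all windows. The sequence CAGAC, to which Smad proteins can bind, was looked for on both strands and was in 10 of the 13 windows, against 49.6% of all windows. These matches describe the letters of the windows and no binding was measured.

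Libraries held between 12605870 and 17757711 counts on genes. Skil was at 76.0, 74.7 and 77.5 CPM (reads of the gene per 1e+06 reads of the library, with totals scaled by edgeR's trimmed mean of M values, TMM) in SnoN cKO 1, 2 and 3, against 89.5, 87.5 and 88.9 CPM in wild type 1, 2 and 3. The targeted transcript was thus lower in every SnoN cKO library than in any wild type library, as were 6.73% of all genes tested. Its log2 fold change was -0.22 (SE 0.04, 95% interval -0.31 to -0.13), a level 14.2% lower in SnoN cKO. Skil did not pass edgeR's test (unadjusted p = 0.000379, adjusted p = 0.637), and 0.637 was the lowest adjusted p among all genes tested. No exon or cell was resolved. The sex labels of 2 libraries did not match their own reads. SnoN cKO 1, labelled female, had 2.74 CPM of Xist and 89.8 CPM of the Y-linked gene Ddx3y, and SnoN cKO 2, labelled male, had 2536 CPM of Xist and 0 counts of Ddx3y. Both carry the same genotype label. SnoN cKO 2 also stood apart in Ttr, a transcript of the choroid plexus, at 17.3 CPM against 1641 to 3209 CPM in the other 5 libraries.

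Of the 10 factors, Atoh1 and Barhl1 differed most between genotypes, and neither passed the test. Atoh1, the bHLH factor that specifies granule precursors, was at 30.0, 34.1 and 28.1 CPM in SnoN cKO 1, 2 and 3, against 27.5, 25.8 and 28.3 CPM in wild type 1, 2 and 3. SnoN cKO 2 was the highest library and the genotypes overlapped, since SnoN cKO 3 was below wild type 3. The mean was 30.7 ± 3.07 CPM in SnoN cKO and 27.2 ± 1.29 CPM in wild type (SD, n = 3 each), with a log2 fold change of 0.18 (SE 0.08) by edgeR's quasi-likelihood test and an adjusted p of 0.654. These levels rested on 352 to 504 reads per library.

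Barhl1, a homeodomain factor needed for the survival and migration of granule neurons, was at 224, 255 and 213 CPM in SnoN cKO 1, 2 and 3, against 194, 192 and 227 CPM in wild type 1, 2 and 3. Again SnoN cKO 2 was the highest, and wild type 3 lay above the other SnoN cKO libraries. The log2 fold change was 0.18 (SE 0.08, 95% interval 0.00 to 0.35). Its adjusted p by edgeR was 0.640. Barhl1 was the only member with an unadjusted p under 0.05, which 3.21% of all genes tested had in the same direction.

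Its paralogue Barhl2, also a factor of rhombic lip derivatives, was at 47.4, 43.6 and 43.2 CPM in SnoN cKO 1, 2 and 3, against 42.9, 44.8 and 51.1 CPM in wild type 1, 2 and 3. Here wild type 3 was the highest library and the genotypes overlapped widely. Barhl2 was the only member with a negative log2 fold change, -0.05 (SE 0.07, adjusted p = 0.869 by edgeR), and without wild type 3 it was 0.03. Without SnoN cKO 1 or wild type 1 it was -0.09 or -0.10.

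Pax6, a paired-domain factor present from precursor to mature granule neuron, was at 409, 455 and 413 CPM in SnoN cKO 1, 2 and 3, against 387, 381 and 415 CPM in wild type 1, 2 and 3. Its log2 fold change was 0.11 (SE 0.06), and only wild type 3 reached into the SnoN cKO range. Without SnoN cKO 2 it was 0.06. Meis1, a TALE homeodomain factor known to act on Pax6 transcription and on Atoh1 turnover, was at 168, 174 and 166 CPM in SnoN cKO 1, 2 and 3, against 153, 165.4 and 163 CPM in wild type 1, 2 and 3. Meis1 was the only member whose libraries did not overlap between genotypes. The gap was narrow, between 165.6 CPM in SnoN cKO 3 and 165.4 CPM in wild type 2, and 6.95% of all genes tested were separated in this direction. The log2 fold change of Meis1 was 0.08 (SE 0.05) with an adjusted p of 0.684 by edgeR, and it was 0.04 without wild type 1.

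In both factors of newly postmitotic neurons the genotypes overlapped. Nhlh1, a bHLH factor expressed briefly as neurons are born, was at 91.0, 97.2 and 78.0 CPM in SnoN cKO 1, 2 and 3, against 85.2, 84.6 and 94.2 CPM in wild type 1, 2 and 3. SnoN cKO held both the highest and the lowest library, and the log2 fold change was 0.01 (SE 0.08), a sign that turned with library totals alone (-0.01). Its close relative Nhlh2 was at 157, 180 and 165 CPM in SnoN cKO 1, 2 and 3, against 164, 151 and 167 CPM in wild type 1, 2 and 3, with a log2 fold change of 0.06 (SE 0.06). That value rested on single libraries, at 0.00093 without SnoN cKO 2, 0.02 without wild type 2 and 0.10 without SnoN cKO 1.

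Differentiation factors likewise overlapped between genotypes. Neurod1, which granule neurons need to differentiate and survive, was at 494, 531 and 479 CPM in SnoN cKO 1, 2 and 3, against 471, 449 and 564 CPM in wild type 1, 2 and 3. The wild type libraries thus spanned the whole range of SnoN cKO. Neurod1 averaged 502 ± 26.9 CPM in SnoN cKO and 495 ± 60.9 CPM in wild type (SD, n = 3 each), a log2 fold change of 0.02 (SE 0.08) that was -0.02, -0.01 and -0.04 without SnoN cKO 2, wild type 1 and wild type 2. Neurod2, a bHLH factor of postmitotic neurons, was at 226, 244 and 227 CPM in SnoN cKO 1, 2 and 3, against 207, 211 and 247 CPM in wild type 1, 2 and 3, with a log2 fold change of 0.07 (SE 0.07). It was 0.03 without SnoN cKO 2, 0.02 without wild type 1, 0.04 without wild type 2 and 0.15 without wild type 3. Etv1, an ETS factor that switches on genes of maturing granule neurons, was at 18.3, 19.1 and 18.6 CPM in SnoN cKO 1, 2 and 3, against 18.2, 15.5 and 18.9 CPM in wild type 1, 2 and 3. Its SnoN cKO libraries lay close together and wild type 2 was the low one, and the log2 fold change of 0.09 (SE 0.09) was within the spread, at 0.02 without wild type 2 and 0.15 without wild type 3.

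**Figure D1:**
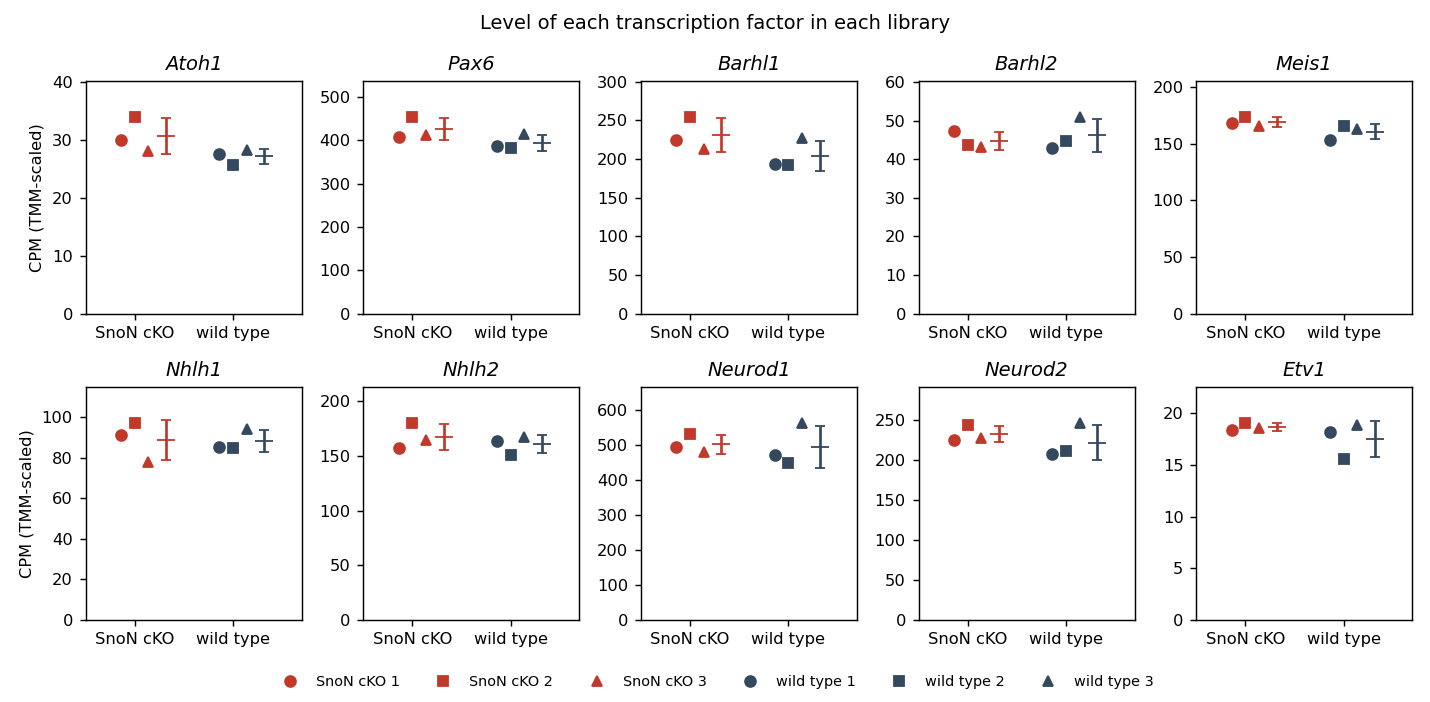
Level of each of the 10 transcription factors in CPM (linear axis from 0) in each library, SnoN cKO left of wild type, with mean and SD to the right of the points (n = 3 each). SnoN cKO 2 is the highest library in 7 panels, and the genotypes overlap in all panels but Meis1.

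None of the 10 factors passed the test. By edgeR's quasi-likelihood test 0 members and 0% of the 15457 genes tested had an adjusted p under 0.05, with adjusted p of the members between 0.640 and 0.978. At an unadjusted p under 0.05 there was 1 member, and 1187 genes in all (7.68%). DESeq2 called 6 genes in all and 0 members. In direction, the log2 fold change was above 0 for 9 of 10 members, against 49% of all genes tested. It was above 0 for 8 members with library totals alone, and for 7 to 10 with 1 library left out. The median of the members was 0.07 against -0.002 over all genes tested. Their expression in the same libraries is not independent, so this count is a description.

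The intervals bound the differences that these libraries leave possible. Over the 10 members the 95% intervals of edgeR's fit ran from a level 13.5% lower in SnoN cKO, the lower end for Barhl2, to one 28.1% higher, the upper end for Atoh1, and 9 of the 10 intervals included 0. For Neurod1 the interval ran from -10.4% to 14.7%, and for Pax6 from -1.03% to 17.6%. The mRNA came from the whole cerebellum, so fewer or more cells of the lineage and less or more RNA per cell cannot be told apart.

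**Figure D2:**
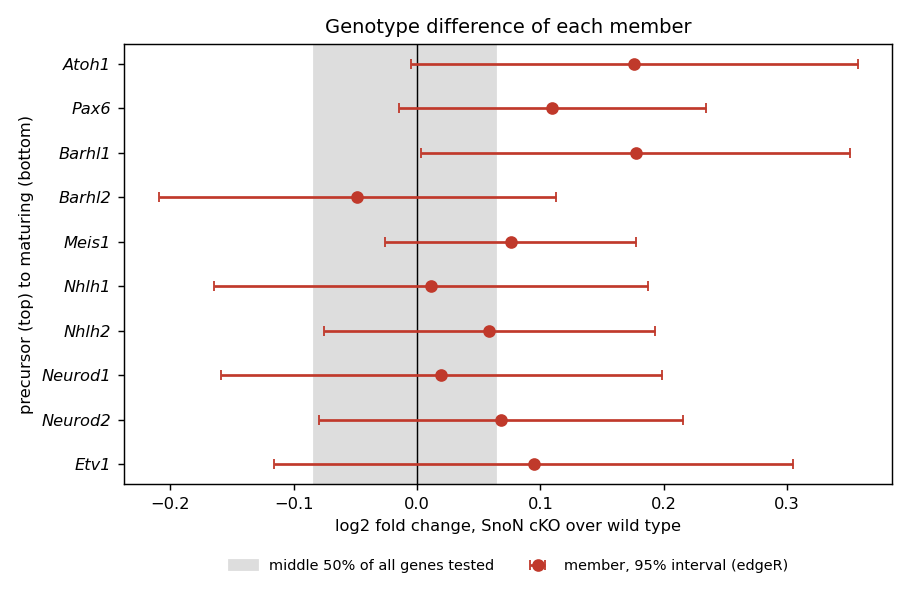
Log2 fold change of SnoN cKO over wild type for each member, from precursor at the top to maturing neuron at the bottom, with 95% intervals from edgeR. The grey band is the middle 50% of all genes tested, from -0.08 to 0.06. Atoh1 and Barhl1, at 0.18, lie farthest from 0, and Barhl2 is the only negative one.

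Single libraries stood high or low across most of the set. SnoN cKO 2 was the highest library for 7 of the 10 factors and wild type 3 for the other 3, Barhl2, Neurod1 and Neurod2. Wild type 2 was the lowest for 6 factors, wild type 1 for 3 and SnoN cKO 3 for Nhlh1. The median deviation of the 10 factors from their mean over the 6 libraries was 0.02, 0.12 and -0.01 (log2) in SnoN cKO 1, 2 and 3, while wild type 1, 2 and 3 had -0.08, -0.11 and 0.06. Summed over the 10 factors the level was 1864, 2034 and 1831 CPM in SnoN cKO 1, 2 and 3, against 1750, 1720 and 1975 CPM in wild type 1, 2 and 3.

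**Figure D3:**
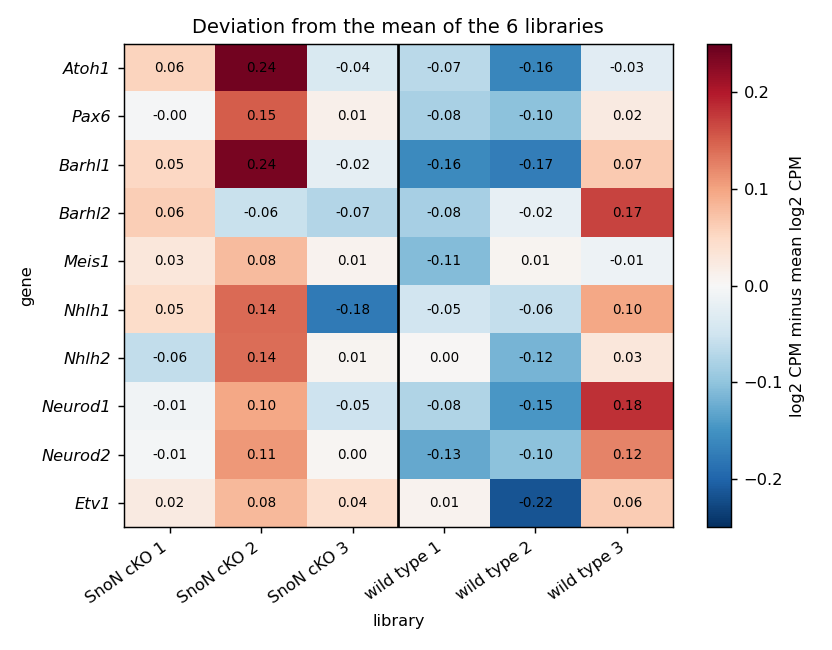
Log2 CPM of each member minus its mean over the 6 libraries, SnoN cKO left of the black line and wild type right of it. The column of SnoN cKO 2 is positive for all members but Barhl2, and the column of wild type 2 is negative for all but Meis1.

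Without SnoN cKO 2 the log2 fold changes of Atoh1 and Barhl1 were 0.09 and 0.10, and without wild type 3 they were 0.21 and 0.26. Markers of other tissue were lowest in SnoN cKO 2. The 9 brainstem and midbrain genes that passed the filter, of 13 listed, summed to 13.7, 8.93 and 17.5 CPM in SnoN cKO 1, 2 and 3, against 20.7, 24.3 and 19.6 CPM in wild type 1, 2 and 3. Each SnoN cKO sum lay below each wild type sum, a description and no test, since the filter bears on which genes were summed. Genes near the floor passed the filter through wild type alone, as Hoxa5 did with 0 counts in SnoN cKO 2, and such a gene can only be negative. All 7 choroid plexus genes passed the filter, and they summed to 177 CPM in SnoN cKO 2, 3646 to 3896 CPM in the other SnoN cKO libraries and 2100 to 3778 CPM in wild type. The share of these tissues in the differences of the 10 factors was not tested. Genes of dividing cells (Mki67, Top2a, Pcna, Mcm2, Ccnd1 and Ccnd2) summed to 2333, 2538 and 2242 CPM in SnoN cKO 1, 2 and 3, against 2158, 2152 and 2307 CPM in wild type 1, 2 and 3. The log2 fold changes of all 6 were above 0, as were those of 49% of all genes tested, with a median of 0.11. By edgeR's test 0 of the 6 passed, and 2, Mcm2 and Pcna, were higher at an unadjusted p under 0.05, against 3.21% of all genes tested. The log2 fold changes of Mcm2, Pcna and Top2a were 0.19 (SE 0.07), 0.16 (SE 0.07) and 0.09 (SE 0.05). In these 3 the SnoN cKO libraries lay wholly above wild type, as in 6.95% of all genes tested, and in the other genes of the list the genotypes overlapped.

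Ratios within a library do not depend on the scaling between libraries. The log2 ratio of Atoh1 over Neurod1, precursor over differentiating neuron, was -4.04, -3.96 and -4.09 in SnoN cKO 1, 2 and 3, while wild type 1, 2 and 3 had -4.10, -4.12 and -4.32. The genotypes did not overlap, although SnoN cKO 3 and wild type 1 were all but level. The difference of 0.15 had p = 0.1 by an exact permutation test, two-sided, which is the smallest p that 3 libraries against 3 can give (0.2 after adjustment over 4 ratios), and it was 0.08 without wild type 3.

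The ratio of Barhl1 over its paralogue Barhl2 was separated more clearly. It was 2.24, 2.55 and 2.30 on the log2 scale in SnoN cKO 1, 2 and 3, while wild type 1, 2 and 3 had 2.18, 2.10 and 2.15, a difference of 0.22. The exact permutation p was again the smallest possible, 0.1 (adjusted 0.2), and the difference was 0.13 without SnoN cKO 2, whose value was the highest. The other paralogue pairs overlapped. Nhlh1 over Nhlh2 averaged -0.92 ± 0.15 in SnoN cKO and -0.87 ± 0.07 in wild type (SD, n = 3 each, exact permutation p = 0.7), and Neurod1 over Neurod2 averaged 1.11 ± 0.03 in SnoN cKO and 1.16 ± 0.06 in wild type (exact permutation p = 0.3).

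**Figure D4:**
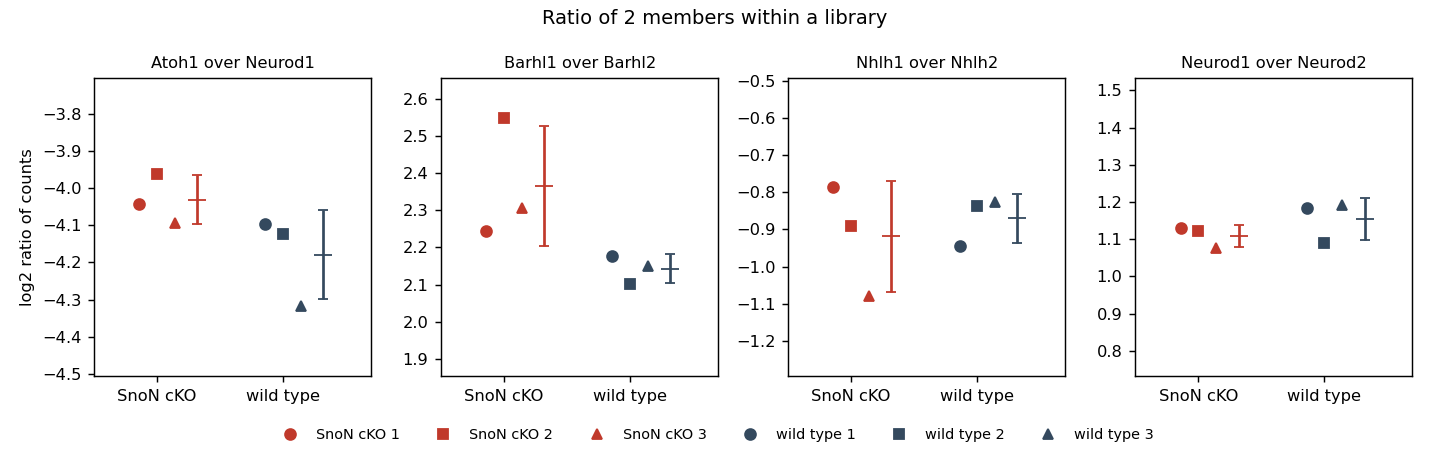
Log2 ratio of the counts of 2 members in each library, SnoN cKO left of wild type, with mean and SD beside the points (n = 3 each). The axes span the same width in all panels and do not start at 0. Atoh1 over Neurod1 and Barhl1 over Barhl2 show no overlap between genotypes, and the other ratios overlap.

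To compare the factors with each other, CPM was divided by the exon bases of each gene in the GENCODE M21 annotation, which may differ from the annotation used for counting. Neurod1 had the highest level per kilobase, 184 ± 9.85 CPM in SnoN cKO and 181 ± 22.3 CPM in wild type (SD, n = 3 each). Neurod2 followed at 74.0 ± 3.27 CPM per kilobase in SnoN cKO and 70.6 ± 6.97 CPM in wild type, and Barhl1 at 59.1 ± 5.55 CPM per kilobase in SnoN cKO and 52.3 ± 4.98 CPM in wild type. Each of these lay above the next in all libraries.

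Nhlh1, Pax6 and Nhlh2 came next, between 27.9 and 39.5 CPM per kilobase over all libraries, and neighbours among them overlapped. Barhl2 was at 19.3 ± 0.997 CPM per kilobase in SnoN cKO and 20.0 ± 1.85 CPM in wild type, above Meis1 and Atoh1 on this scale, and Meis1 and Atoh1 overlapped each other. Etv1 was the lowest at 1.404 ± 0.03 CPM per kilobase in SnoN cKO and 1.32 ± 0.13 CPM in wild type. The order depended on the length used. With the longest transcript of each gene in place of all exons, Pax6 moved to place 2 at 96.1 CPM per kilobase in SnoN cKO and 89.1 CPM in wild type. On that length Nhlh2, at 42.4 CPM per kilobase in SnoN cKO and 40.8 CPM in wild type, was above Nhlh1, at 36.0 CPM per kilobase in SnoN cKO and 35.7 CPM in wild type. Likewise Meis1, at 22.4 CPM per kilobase in SnoN cKO and 21.2 CPM in wild type, was above Barhl2, while Neurod1 stayed first and Atoh1 and Etv1 last. The genes differ in structure. Atoh1 has 1 exon, and Nhlh1, Nhlh2, Neurod1 and Neurod2 each have their coding sequence in 1 exon, while Pax6, Meis1 and Etv1 have 11, 12 and 12 coding exons.

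Strand was lost in the library preparation that the labels name, which touches 2 members. Exons of Meis1 overlap the antisense gene Gm16140 over 8.51% of their bases, and exons of Neurod1 overlap the antisense gene Gm26755 over 5.64%. Apart from the loss of strand, exons of Meis1 overlap Gm37818 on the same strand over 9.77%, and those of Neurod1 overlap Cerkl on the same strand over 7.37%. Reads in any of these overlaps may be split or lost between the genes.

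None of the listed partners and antagonists of these factors passed the test. The log2 fold changes of all 3 E proteins, the dimer partners of the bHLH members, were above 0, with a median of 0.08, and Tcf12, at 348, 381 and 357 CPM in SnoN cKO 1, 2 and 3 against 338, 339 and 343 CPM in wild type 1, 2 and 3, did not overlap. Of 9 Id, Hes and Hey genes, most of which restrain bHLH factors, 7 were positive, with a median of 0.07. Id2, an inhibitor that sequesters E proteins, was at 177, 191 and 177 CPM in SnoN cKO 1, 2 and 3, against 165, 166 and 162 CPM in wild type 1, 2 and 3. Its log2 fold change was 0.14 (SE 0.04), with an unadjusted p of 0.00854 and an adjusted p of 0.637 by edgeR. Hes1, a Notch effector, had a log2 fold change of 0.16 (SE 0.10). Of the 6 Pbx and Pknox cofactors, which pair with Meis proteins, 2 were positive and 4 negative, and Pbx4 stood at -0.34 (SE 0.11) on the log2 scale. Of these 18 genes 0 passed edgeR's test, and 2 had an unadjusted p under 0.05, Id2 higher and Pbx4 lower (3.21% of all genes tested were higher and 4.47% lower at that p). The SnoN cKO libraries lay wholly above wild type in Tcf12, Id2 and Hes1, as in 6.95% of all genes tested. They lay wholly below wild type in Hey2, a Notch effector named after its values were seen, and in Pbx4, as in 6.73% of all genes tested.

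Of 8 relatives of the members outside the set, 6 had a positive and 2 a negative log2 fold change, with a median of 0.03. Neurod4 had the largest positive log2 fold change of the list, 0.19 (SE 0.15), and Atoh8 stood at 0.10 (SE 0.15). Neurod6, Etv4, Etv5 and Meis3 had log2 fold changes of 0.04, 0.01, 0.02 and 0.03. Atoh8 and these last genes were named after their values were seen. Meis2, which among cerebellar cells marks neurons of the nuclei, was at 24.4, 13.3 and 30.4 CPM in SnoN cKO 1, 2 and 3, against 44.8, 50.3 and 30.1 CPM in wild type 1, 2 and 3, a log2 fold change of -0.88 (SE 0.26, adjusted p = 0.637 by edgeR). Atoh7, a retinal relative of Atoh1, was at 1.72, 0.338 and 2.87 CPM in SnoN cKO 1, 2 and 3, against 2.97, 4.45 and 3.12 CPM in wild type 1, 2 and 3. Both were lowest in SnoN cKO 2, the library lowest in brainstem genes, and the part of other tissue in their values was not tested.

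Other transcription factors of the granule lineage had 12 positive and 2 negative log2 fold changes of 14, with a median of 0.05. Of all genes tested 49% were positive. Zic2 and Zic5, zinc finger factors of granule precursors, stood at 0.11 (SE 0.06) and 0.12 (SE 0.07) on the log2 scale, and Insm1, a zinc finger factor of neurogenic divisions, at 0.13 (SE 0.10). Among these 14, 0 passed edgeR's test and 0 had an unadjusted p under 0.05, while DESeq2 also called 0 of them. Of 15 genes of granule neuron differentiation, 9 were positive and 6 negative with a median of 0.03. Grin2c, an NMDA receptor subunit gene that Etv1 is known to activate, was at 13.4 CPM in SnoN cKO and 13.9 CPM in wild type on average. Ntf3, a neurotrophin gene whose expression depends on Barhl1, was at 9.69 CPM in SnoN cKO and 7.97 CPM in wild type, a log2 fold change of 0.28 (SE 0.14). Cbln3, a cerebellin of granule neurons, Vsnl1, a calcium sensor, and Tubb3, a neuronal tubulin, had unadjusted p under 0.05 by edgeR with log2 fold changes of 0.31, -0.32 and -0.10. At that p 3.21% of all genes tested were higher and 4.47% lower, and 0 genes of the list passed. Grin2c and Ntf3 were chosen for their known link to a member after their values were seen.

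**Figure D5:**
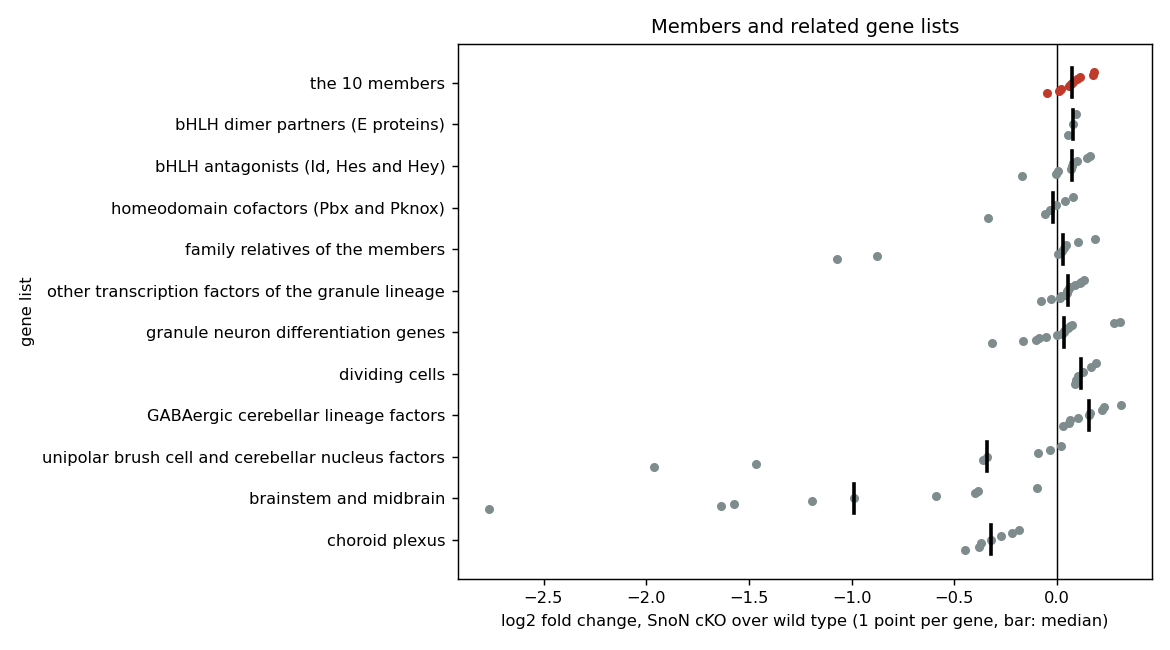
Log2 fold change of SnoN cKO over wild type for the 10 members (red) and the genes of 11 related lists (grey) that passed the filter on low counts, 1 point per gene, with a bar at the median. The members lie between -0.05 and 0.18, and points below -1 are found in the lists of brainstem genes, of nucleus genes and of family relatives (Atoh7).

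By pattern over the 6 libraries, the genes most like Atoh1 among 10669 genes at 10 CPM or more were Zfp422, Taf6 and Kars, each with a Pearson r of 0.99 of log2 CPM. The members most like Atoh1 were Pax6 (r = 0.93) and Barhl1 (r = 0.92), and the least like it was Barhl2 (r = -0.05). Neurod1 was most like Btbd3, Rhobtb1 and Celf2 (r = 0.99 each), and among the members most like Neurod2 (r = 0.92). These libraries share their scaling and 2 genotypes, and 270 genes had r over 0.9 with Atoh1 and 154 with Neurod1, so the values are descriptions with no test.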

How the data were processed

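The table deposited by the authors holds unnormalized counts of reads on genes, with 1 column per library. The submitters' processing notes name featureCounts 1.4.5, Subread, STAR 2.0.4b and the build mm9, without their settings or annotation.

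Rows were taken by symbol. The deposited Ensembl identifiers did not pair with the symbols: of 40254 identifiers in GENCODE M21 only 97 (0.241%) stood beside their own symbol, and 0 of 10 members did. Counts followed the symbols, since Xist had 70949 reads by symbol and 5 by identifier, and mt-Co1 345755 and 0. No identifier is printed.

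Repeated entries (140, with a symbol and all 6 counts alike) were dropped, leaving 41088. edgeR 4.0.16 (R 4.3.3) was run on all 6 libraries: filterByExpr at a minimum count of 10, TMM, a two-sided quasi-likelihood test of genotype without covariates, and Benjamini-Hochberg adjustment over 15457 genes at 0.05. It was tested on simulated data. Standard errors came from the coefficient and F, and 95% intervals from the moderated t distribution. Alternatives were RLE scaling (edgeR), library totals, no filter, DESeq2 1.42.0, repeats kept, a replicate block, labelled sex and each library left out. Levels are CPM on TMM-scaled totals of the genes tested.

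At 232 to 8172 reads per member and library, counting error was at most 6.57%. The labels give each library its own code and sex but no litter, so p-values measure the spread between these samples. No pair of libraries agreed within sampling noise (15 pairs, chi-square over degrees of freedom at least 2.83). Named genes are the 10 members, Skil, up to 3 genes per list with the smallest p, and for Atoh1 and Neurod1 the 3 genes alike in pattern, plus those given as chosen later. Members and lists were chosen with earlier results of these data known.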

Additional observations from a re-analysis of the deposited data

How the results depend on the processing

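By edgeR's quasi-likelihood test 0 genes were called with all libraries, with RLE scaling, library totals alone, repeats kept or any library left out (0 to 0). There were 39 without the filter on low counts, 6 by DESeq2 and 1, Ide, with labelled sex as a covariate. Since the labels of SnoN cKO 1 and SnoN cKO 2 did not match their reads, that covariate does not adjust for the sex that the reads show. Members called were 0 under all 13 alternatives, with a lowest adjusted p of 0.313. Without 1 library the median log2 fold change of the members ran from 0.03 (without wild type 2) to 0.14 (without wild type 3), against 0.07 with all. Atoh1 and Barhl1 were positive under all 13 alternatives, from 0.09 to 0.25 and from 0.10 to 0.26. Barhl1 did not reach an unadjusted p of 0.05 with library totals alone, under the replicate block, or without SnoN cKO 1, SnoN cKO 2, wild type 1 or wild type 2. Under other settings more members were below it: Atoh1 and Pax6 without the filter, Pax6 by DESeq2, Atoh1 without SnoN cKO 3, and Pax6 and Neurod2 without wild type 3. Genes below it in these 4 settings numbered 1865, 672, 1505 and 1391 in all. The sign of Nhlh1 turned with library totals alone (-0.0051) and without some single libraries (-0.061 to 0.11). Without some single libraries the sign also turned for Neurod1 (-0.041 to 0.12), Barhl2 (-0.099 to 0.028, positive without wild type 3) and the Nhlh1 over Nhlh2 ratio (-0.12 to 0.031, positive without SnoN cKO 3). The signs of the others held, with ranges over single libraries left out of 0.059 to 0.15 for Pax6, 0.042 to 0.10 for Meis1, 0.00093 to 0.10 for Nhlh2, 0.022 to 0.15 for Neurod2 and 0.017 to 0.15 for Etv1. Those causes were not tested. The labels do not state that same-numbered libraries are pairs, so the numbers were not taken as pairs. For deviations from the genotype mean, r across genes was -0.04, -0.32 and -0.18 between same-numbered libraries. Between the others it ran from -0.17 to 0.39. With 3 libraries per genotype these values cannot show whether libraries shared a litter or preparation. With the replicate block 0 genes were called and the median of the members was 0.07. At this depth Etv1 (232 to 317 reads) and Atoh1 (352 to 504 reads) have the widest counting error.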

Other observations

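Factors of the other cerebellar lineages, which leave the ventricular zone and the rhombic lip beside the granule lineage, differed in direction. The log2 fold changes of all 9 listed factors of the GABAergic lineage were above 0, with a median of 0.15. The 9 summed to 380.3, 405.8 and 346 CPM in SnoN cKO 1, 2 and 3, against 321.3, 334.3 and 375.2 CPM in wild type 1, 2 and 3. The genotypes thus overlapped in this sum, with SnoN cKO 2 the highest library and wild type 3 above SnoN cKO 3. Lhx5, a LIM homeodomain factor of Purkinje precursors, was at 53.6, 63.1 and 53.3 CPM in SnoN cKO 1, 2 and 3, against 44.8, 48.2 and 53.3 CPM in wild type 1, 2 and 3. Pax2, a factor of interneuron precursors, stood at 0.23 (SE 0.10) on the log2 scale and Ptf1a, which specifies the GABAergic lineage, at 0.31 (SE 0.17). By edgeR's quasi-likelihood test 0 of the 9 passed (lowest adjusted p 0.637) and 1, Lhx5, was higher at an unadjusted p under 0.05, against 3.21% of all genes tested (49% were above 0).

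Of 7 genes of unipolar brush cells and cerebellar nuclei, which share the rhombic lip origin of granule neurons, 6 were negative, with a median of -0.34. Lhx9 was at 3.60, 1.62 and 2.99 CPM in SnoN cKO 1, 2 and 3, against 22.4, 4.58 and 5.30 CPM in wild type 1, 2 and 3, so that wild type 1 stood apart. Eomes, which marks unipolar brush cells, averaged 47.9 CPM in SnoN cKO and 51.0 CPM in wild type, and Tbr1, of the medial nucleus, 2.56 CPM in SnoN cKO and 2.61 CPM in wild type. None of the 7 passed edgeR's test, and 3 were lower at an unadjusted p under 0.05, Lhx9, Slc17a6 and Lhx2, against 4.47% of all genes tested. The 7 summed to 176.1, 124.8 and 175.7 CPM in SnoN cKO 1, 2 and 3, against 216.2, 198.6 and 190.8 CPM in wild type 1, 2 and 3. Each SnoN cKO sum lay below each wild type sum. The lowest was SnoN cKO 2, the library also lowest in brainstem and choroid plexus genes. Slc17a6 was the largest part of each sum, at 100.4, 73.4 and 107.2 CPM in SnoN cKO 1, 2 and 3, against 122.5, 122.6 and 116.2 CPM in wild type 1, 2 and 3. The part of other tissue in these values was not tested. Eomes and Tbr1 were named after their values were seen.

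In the brainstem and midbrain list all 9 measured genes were negative, with a median of -0.99. Genes near the floor passed the filter through wild type alone, as Hoxa5 did at 3, 0 and 6 reads in SnoN cKO 1, 2 and 3, against 17, 28 and 13 reads in wild type 1, 2 and 3, and such a gene can only be negative. In the choroid plexus list all 7 were negative with a median of -0.32, and SnoN cKO 2 was the lowest library in Otx2, at 22.0 CPM against 46.2 to 56.1 CPM elsewhere.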
